A study of Drosophila melanogaster with 16 samples.

Results

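The genes encoding the proteins of the mitochondrial ribosome were examined for binding of Psi, RNA polymerase (RNA Pol) and Myc in the larval wing disc. Members were all protein-coding genes in the Ensembl annotation of the BDGP6 genome whose symbol begins with mRpL or mRpS, which gave 73 of the 13945 protein-coding genes on the chromosome arms, 47 for the large subunit (mRpL) and 26 for the small subunit (mRpS). Binding had been mapped by Targeted DamID (TaDa). In this assay a bacterial adenine methylase (Dam), fused to the protein under study, marks GATC sequences close to the DNA that the protein contacts, and the marked fragments are recovered and sequenced.

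All 16 samples were wing discs of mid-third instar female larvae of *Drosophila melanogaster*. Every sample carried the *sd*-GAL4 driver (sdGAL4) with tsGAL80, the temperature-sensitive repressor, so the profile covers only disc cells in which this driver is active. Dam constructs under UAS control were expressed at 29°C for 24 h, after egg lays of less than 4 h at 25°C and 7 days at the repressive 18°C. Psi-Dam carried the *Drosophila* FUBP protein, Pol-Dam carried Polr2F (RpII18), a subunit common to the RNA polymerases, and Myc-Dam carried the growth-promoting transcription factor, with 3 samples of each. The other 7 samples expressed Dam alone. Dam-only sample 1 was the control for Psi-Dam samples 1 and 3 and for Pol-Dam sample 1, whereas the Myc-Dam samples had Dam-only controls of their own (samples 3, 4 and 5). The labels carry a further description that reads as RNAi or control. It conflicts with the titles and was not used.

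For each protein the deposited data are 1 list of significant peaks (FDR of 1%), called by the authors on the average of the 3 replicates: 1710 peaks for Psi, 1568 for RNA Pol and 1951 for Myc. No value below therefore has a replicate error, the read depth is unknown, and no test over samples could be run. Counts describe these lists, and differences between shares were not tested. A gene was called bound when a peak overlapped it or lay within 1 kb. The peak score was computed by the authors' caller, its formula is not given in the sources used here, and it is compared only within a list. For orientation on the tissue, the RNA Pol list held a peak at 5 of 7 wing disc genes (*vg*, *nub*, *sd*, *rn* and *dpp*, but not *ap* or *en*). It also held a peak at 2 of 3 myoblast genes (*twi* and *Mef2*), at 1 of 2 tracheal genes (*trh*), and at 0 of 3 haemocyte and 0 of 2 fat body genes. Over all protein-coding genes the share was 13.6%. These lists are short and were not matched for length, so they cannot settle which cells were profiled.

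Mitochondria translate a handful of respiratory chain subunits on their own ribosomes. The ribosomal RNAs come from mitochondrial DNA, but every ribosomal protein is encoded in the nucleus, made in the cytoplasm and imported. Many of these proteins descend from bacterial ribosomal proteins, and others were acquired in mitochondria. Members numbered L1 to L36 and S2 to S21 were counted here as having a bacterial counterpart, and higher numbers as having none. This rule uses the number alone, was not checked against protein sequences and may misplace some genes. In growing *Drosophila* tissues Myc, paired with Max at the E-box CACGTG, is known for promoting ribosome production.

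The sequences upstream of the members that matter most below are printed first, because most of them lie between annotated starts reading in opposite directions. Each run is written 5′ to 3′ on the member's strand and ends at the base before its annotated start, from BDGP6 (RefSeq Release 6 genome sequence), and is limited to 250 bases or to the edge of the neighbour's first exon. Capitals mark the E-box CACGTG and the DNA replication-related element TATCGATA (DRE). The set holds a member with a high Myc score (*mRpS10*, plus strand, chr3R:15229415-15229664), the member with the highest RNA Pol score (*mRpL22*, plus strand, chrX:16783683-16783932), members that share a start region with a gene described below (*mRpL32*, plus strand, chr3R:31252622-31252871; *mRpL35*, plus strand, chr3R:22023336-22023526; *mRpL55*, minus strand, chr3R:19094906-19094999) and a member with both motifs and no peak (*mRpL16*, plus strand, chrX:1890006-1890255).

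mRpS10: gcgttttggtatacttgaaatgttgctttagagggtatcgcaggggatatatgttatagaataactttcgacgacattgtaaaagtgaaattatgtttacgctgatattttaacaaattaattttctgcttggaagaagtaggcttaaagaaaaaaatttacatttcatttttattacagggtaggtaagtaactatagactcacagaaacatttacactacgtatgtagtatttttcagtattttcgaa

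mRpL22: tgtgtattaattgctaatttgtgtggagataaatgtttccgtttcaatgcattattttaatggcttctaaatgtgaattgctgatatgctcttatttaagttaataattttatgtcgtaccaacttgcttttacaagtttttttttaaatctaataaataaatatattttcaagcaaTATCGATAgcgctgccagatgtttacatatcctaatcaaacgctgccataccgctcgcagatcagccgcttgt

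mRpL32: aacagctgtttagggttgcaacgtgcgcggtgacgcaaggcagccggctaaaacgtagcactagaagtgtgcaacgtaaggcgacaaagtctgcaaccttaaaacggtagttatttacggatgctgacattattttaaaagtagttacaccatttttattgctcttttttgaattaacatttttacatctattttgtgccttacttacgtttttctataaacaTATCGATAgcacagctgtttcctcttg

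mRpL35: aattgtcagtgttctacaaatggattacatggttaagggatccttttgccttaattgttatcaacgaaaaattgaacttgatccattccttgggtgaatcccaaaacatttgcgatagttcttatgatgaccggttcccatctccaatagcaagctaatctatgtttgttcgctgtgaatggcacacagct

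mRpL55: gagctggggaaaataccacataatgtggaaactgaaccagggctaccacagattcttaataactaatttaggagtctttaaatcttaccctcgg

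mRpL16: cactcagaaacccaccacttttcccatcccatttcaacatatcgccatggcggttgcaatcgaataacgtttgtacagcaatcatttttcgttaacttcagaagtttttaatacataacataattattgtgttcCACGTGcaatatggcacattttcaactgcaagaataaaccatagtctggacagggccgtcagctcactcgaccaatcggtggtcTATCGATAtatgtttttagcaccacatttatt

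Myc was the protein with peaks at the most members, RNA Pol came next, and Psi had a peak at a single member. Myc bound 16 of the 73 genes (21.9%), where 19.2% of all protein-coding genes were bound by Myc. RNA Pol bound 13 (17.8%), against 13.6% of all protein-coding genes. Psi bound 1 (1.37%), against 7.92% of all protein-coding genes. Since the members are short (median 909 bp, from 390 to 13391 bp, against a median of 2166 bp for all protein-coding genes), the share over all genes was also weighted to the members' length deciles, which gave 12.4% for Myc, 7.38% for RNA Pol and 3.39% for Psi. The members' shares for Myc and RNA Pol thus lay close to those over all genes and above the length-weighted shares, and the Psi share lay below both. Of the 73 genes, 53 had no peak in any list, 11 had a peak in 1 list, 8 in 2 lists and 1 in all 3. The same counts over all protein-coding genes were not computed, so these cannot be called particular to the members.

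**Figure D1:**
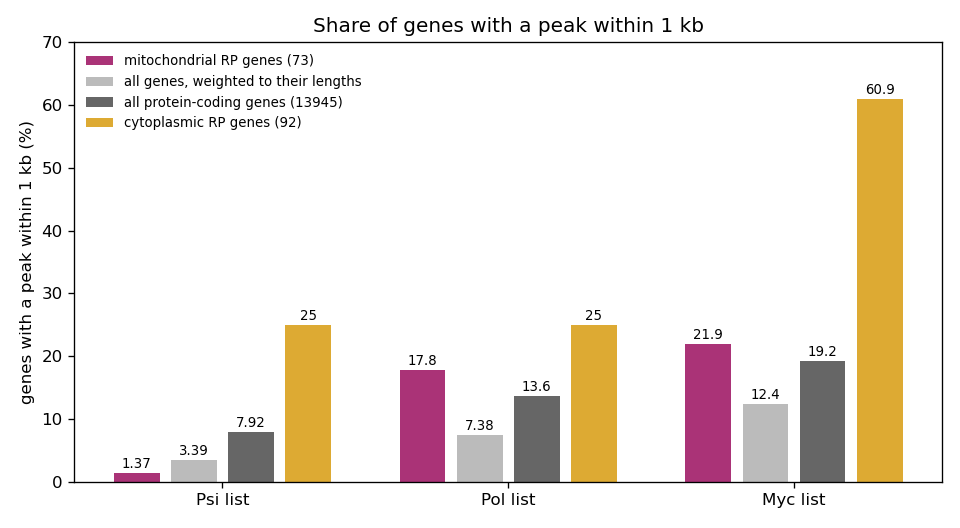
Percentage of genes with a peak within 1 kb in the Psi, RNA Pol and Myc lists, for the 73 mitochondrial ribosomal protein genes, for all 13945 protein-coding genes with and without weighting to the members' lengths, and for 92 cytoplasmic ribosomal protein genes. Bars start at 0 and have no error, since the calls were made on averaged replicates; the mitochondrial genes stood at 1.37%, 17.8% and 21.9%, the cytoplasmic genes at 25%, 25% and 60.9%.

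The genes for cytoplasmic ribosomal proteins gave other values. Of 92 such genes (symbols beginning with RpL or RpS and a number, or RpLP), Psi bound 23 (25%), RNA Pol bound 23 (25%) and Myc bound 56 (60.9%). A start site lay in a Myc peak at 44 of these 92 genes (47.8%) and at 12 of the 73 mitochondrial members (16.4%). The median distance from a start site to the nearest Myc peak was 0.153 kb for the cytoplasmic genes, 13.3 kb for the mitochondrial genes and 16.4 kb for all protein-coding genes. For Psi the corresponding medians were 19.6 kb, 32.7 kb and 37.8 kb. For RNA Pol they were 11.2 kb, 18.6 kb and 24.9 kb, with the mitochondrial members about midway. For Myc and Psi, median distances at the mitochondrial members were closer to those of protein-coding genes at large than to those of their cytoplasmic counterparts.

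What the members share in their position is a neighbour reading the other way. A start on the opposite strand lay within 1 kb upstream of 56 of the 73 members (76.7%), against 33.3% of all protein-coding genes, 30.7% after weighting to length and 58.7% (54 of 92) of the cytoplasmic genes. The distance between such starts was 20 to 793 bp, with a median of 287.5 bp, and 302 bp in all protein-coding genes with this arrangement. Another protein-coding gene lay within 1 kb of 72 of the 73 members, and *mRpS5* was the exception (87.6% of all protein-coding genes have such a neighbour). Annotated ends overlapped another protein-coding gene at 43 members (58.9%), against 41.5% of all protein-coding genes. Among all 4650 protein-coding genes with a divergent start, 24.8% were bound by Myc, 17.8% by RNA Pol and 6.06% by Psi. The 56 members with a divergent start were bound in 13 cases by Myc (23.2%), in 11 by RNA Pol (19.6%) and in 0 by Psi. The Myc and RNA Pol shares lay close to those of all genes with this arrangement, which were not weighted to length. Weighted to the lengths of these 56 members, the shares over all protein-coding genes, with or without a divergent start, were 12% for Myc, 7.02% for RNA Pol and 3.17% for Psi.

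**Figure D2:**
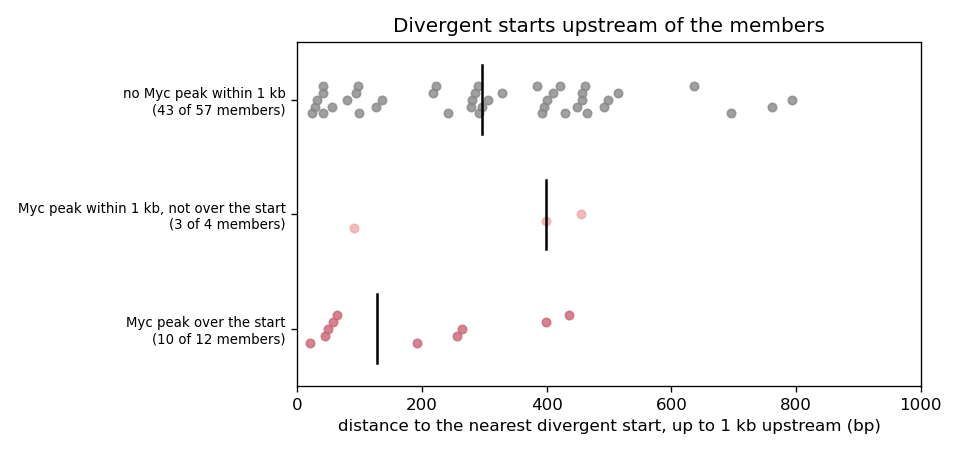
Distance in bp from each member's start to the nearest start on the opposite strand, up to 1 kb upstream, with each point a gene and the vertical line the median. A divergent start was present at 10 of 12 members with a Myc peak over the start (20 to 436 bp away), 3 of 4 with a Myc peak elsewhere within 1 kb and 43 of 57 with none (24 to 793 bp).

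Peaks of Myc lay over start sites. The start of 12 members lay in a Myc peak (9.47% of all protein-coding genes have this), 13 members were overlapped by a Myc peak (15% of all protein-coding genes), and the peak covered between 15.3% and 100% of the gene. Altogether there were 18 pairs of a member and a Myc peak, and each of these 18 peaks also covered the start of at least 1 other protein-coding gene (at *mRpL53* this is *CG33155*, annotated with the same start). No Myc peak within 1 kb of a member was without another protein-coding gene within 1 kb. The corresponding shares over all Myc peaks were not computed, so these counts cannot be called particular to the members. With peaks 635 to 4362 bp wide, against distances of 20 to 455 bp between the divergent starts at Myc-bound members, the signal of a member and that of its neighbour cannot be told apart.

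Where a Myc peak lay within 1 kb of a member, it mostly scored high within the list. The highest score at each of the 16 bound members had a median of 4.22 (1.45 to 5.15), against 3.1 over the 2675 protein-coding genes bound by Myc, 3.21 over the 56 bound cytoplasmic ribosomal protein genes and 2.97 over the peaks of the list, which reach 7.81. Of the 16 members, 13 stood above the median of the list, and *mRpL20*, *mRpL27* and *mRpL52* stood below it. At *mRpL17* (5.1), *mRpL49* (4) and *mRpL50* (4.41) the scored peak did not overlap the member and covered a neighbour's start. Scores at other genes with a divergent start were not computed.

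**Figure D3:**
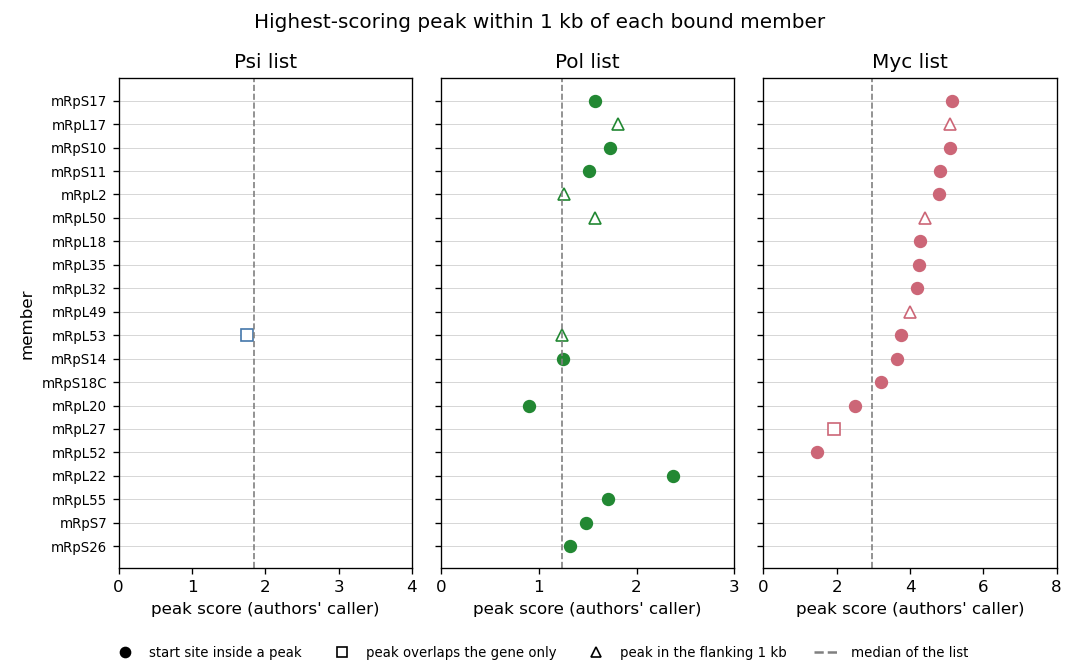
Score of the highest-scoring peak within 1 kb of each of the 20 bound members, by list, where filled circles mark a start site inside a peak, squares a peak that overlaps only the rest of the gene and triangles a peak in the flanking 1 kb. The dashed line is the median score of the list (1.84 for Psi, 1.24 for RNA Pol, 2.97 for Myc), and scores are comparable only within a panel.

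Among the small subunit genes, *mRpS17*, *mRpS10* and *mRpS11* carried the highest Myc scores, and each shares its start region with a divergent gene. All 3 encode proteins with a bacterial counterpart. *mRpS17* (FBgn0034986, chromosome 2R, minus strand, 24173665 to 24174441) had the highest Myc score of any member, 5.15 at rank 15 of 1951 (FDR 2.01e-09). Its Myc peak, from 24174300 to 24176500, reached 141 bp into the gene and 2059 bp upstream, over the start of *Nop60B*, the gene for the pseudouridine synthase of box H/ACA particles, 436 bp away. Most of this peak thus lay on the *Nop60B* side. The RNA Pol peak at the same place (24174300 to 24175138) scored 1.57, at rank 241 of 1568.

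*mRpS10* (FBgn0038307, chromosome 3R, plus strand, 15229665 to 15230516) lay in Myc and RNA Pol peaks with the same ends, from 15228894 to 15230314. The Myc score was 5.09 (rank 21, FDR 4.43e-05) and the RNA Pol score 1.73 (rank 104, FDR 0.000327). The peak covered 76.3% of the gene and 771 bp upstream, which includes the printed stretch and the start of *Art3*, an arginine methyltransferase gene, 257 bp away. *mRpS11* (FBgn0038474, chromosome 3R, plus strand, 17072732 to 17073795) had a Myc score of 4.82 (rank 40, FDR 8.15e-06) and an RNA Pol score of 1.51 (rank 311, FDR 0.00683). Its divergent neighbour at 57 bp is *Ns1*, which encodes the nucleolar GTPase nucleostemin, and both peaks covered both starts.

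The other small subunit genes with a Myc peak were *mRpS14* and *mRpS18C*. *mRpS14* (FBgn0044030, chromosome X, minus strand, 19479382 to 19480238) was wholly covered by a Myc peak with a score of 3.64 (rank 478), and 75.4% of it by an RNA Pol peak with a score of 1.25 (rank 753). The same peaks covered the start of *Naa15-16*, a gene for the auxiliary subunit of an N-terminal acetyltransferase. *mRpS18C* (FBgn0039765, chromosome 3R, plus strand, 30423974 to 30424556) had a Myc score of 3.21 (rank 772), from a peak that covered 15.3% of the gene. It had no RNA Pol peak.

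A Myc peak covered the start of 7 large subunit genes, and *mRpL18*, *mRpL35* and *mRpL32* had the highest scores among them after *mRpL2*. *mRpL35* (FBgn0038923, chromosome 3R, plus strand, 22023527 to 22024341) had a Myc score of 4.25 (rank 163), and the peak from 22022908 to 22024141 covered the divergent start of *Mitofilin*, a gene for an organiser of the inner mitochondrial membrane, 192 bp away. *mRpL18* (FBgn0026741, chromosome 2R, plus strand, 12756434 to 12757173) scored 4.26 (rank 161) and lies 20 bp from the start of *Taz*, which encodes the cardiolipin-remodelling enzyme tafazzin. *mRpL32* (FBgn0039835, chromosome 3R, plus strand, 31252872 to 31253686) scored 4.18 (rank 177) and lies 264 bp from *qless*, a gene of coenzyme Q synthesis. These 3 genes had no RNA Pol peak within 1 kb. The 191 bases printed for *mRpL35* are the whole stretch between its start and *Mitofilin*.

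The remaining large subunit members with Myc over the start were *mRpL2*, *mRpL53*, *mRpL20* and *mRpL52*. *mRpL2* (FBgn0036135, chromosome 3L, plus strand, 11120847 to 11122041) is the counterpart of the bacterial L2, which lies near the peptidyl transferase centre. It had a Myc score of 4.79 (rank 43), in a peak over the divergent start of the forkhead factor gene *FoxK* at 64 bp, while its RNA Pol peak (score 1.26) lay within *FoxK* and ended 69 bp from *mRpL2*. A further Myc peak with a score of 2.6 lay 731 bp from *mRpL2*, over the starts of *Ufd1* and *NaPi-III*. *mRpL20* (FBgn0036335, chromosome 3L, minus strand, 13017149 to 13017867), like *mRpS10*, lay in Myc and RNA Pol peaks with the same ends, but with scores of 2.51 for Myc (rank 1295) and 0.9 for RNA Pol (rank 1444), the lowest RNA Pol score at any member. *mRpL52*, on chromosome 2R, had the lowest Myc score at any member, 1.45 at rank 1941.

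At 4 members the Myc peak missed the start site and covered that of a neighbour. *mRpL17* (FBgn0035122, chromosome 3L, plus strand, 264779 to 265932) had a Myc score of 5.1 (rank 20, FDR 1.18e-08) and an RNA Pol score of 1.81 (rank 71, FDR 4.93e-05), but both peaks ended 28 bp before its start and lay over *Tudor-SN*, which encodes a nuclease-like RNA-binding protein. *mRpL49*, on chromosome X, had a Myc peak with a score of 4 that ended 313 bp away and covered the start of *CG4404*. At *mRpL50*, on chromosome 3L, the Myc peak (4.41, rank 109) and the RNA Pol peak (1.57) lay 809 bp away over the starts of *Neos* and of *RpL18*, a cytoplasmic ribosomal protein gene, and a second Myc peak (1.95) lay 160 bp away over the start of *mei-P22*. *mRpL27* (FBgn0053002, chromosome 2L, minus strand, 4458595 to 4459638) was covered over 98.9% of its length by a Myc peak with a score of 1.92 (rank 1722). That peak began 11 bp inside the gene and covered the start of *RpL27A*, another cytoplasmic ribosomal protein gene. Assigning each peak only to the gene with the nearest start left 6 members bound by Myc and 5 bound by RNA Pol. The share over all protein-coding genes under this rule was not computed, so the fall cannot be called particular to the members.

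**Figure D4:**
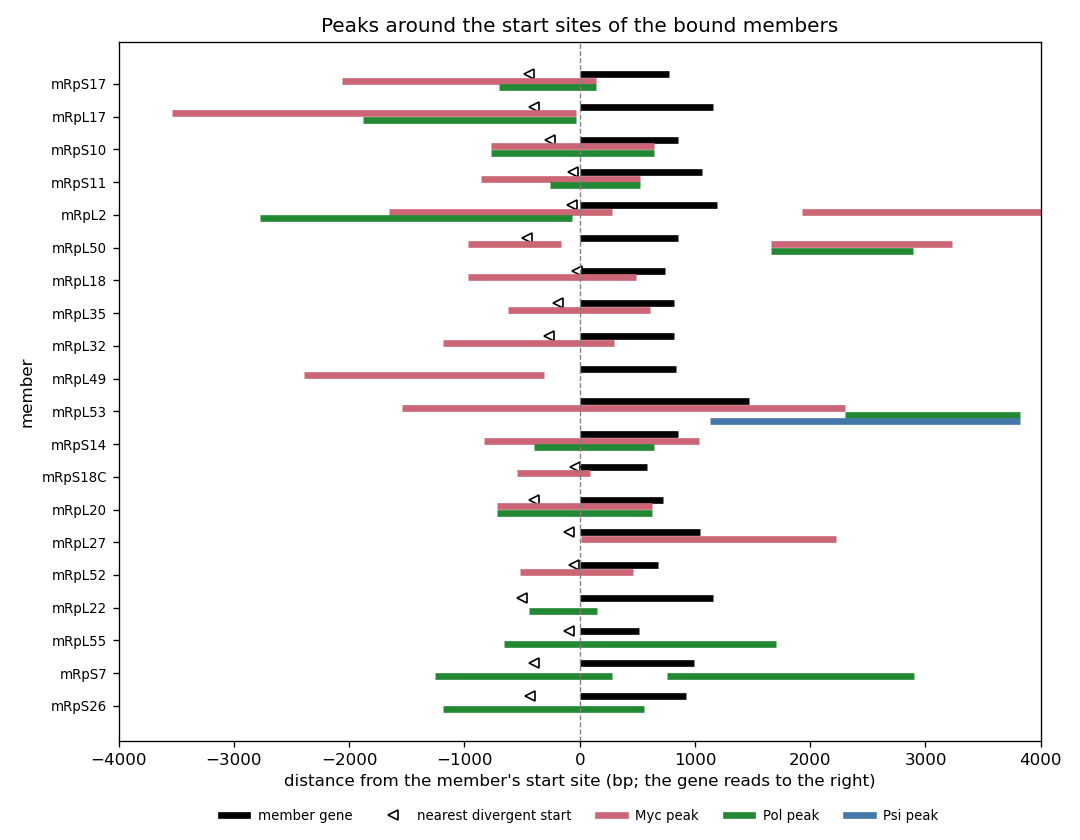
Myc, RNA Pol and Psi peaks around the start sites of the 20 bound members, drawn in bp from the member's start with the gene (black) reading to the right and an open triangle at the nearest divergent start within 1 kb. The start site lies inside a Myc peak at 12 members and inside an RNA Pol peak at 9, the single Psi peak begins 1127 bp downstream of the *mRpL53* start, and a Myc peak at *mRpL2* runs past the right edge to 6286 bp.

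RNA Pol peaks also lay mostly over starts. The start of 9 members lay in an RNA Pol peak (6.88% of all protein-coding genes), the same number was overlapped by one (11.2% of all protein-coding genes), and the peak covered 13.4% to 100% of the gene. Of the 14 pairs of a member and an RNA Pol peak, 8 were peaks over both the member's start and another. The corresponding share over all RNA Pol peaks was not computed. The highest score at each of the 13 bound members had a median of 1.51 (0.9 to 2.37), against 1.3 over all 1896 protein-coding genes bound by RNA Pol and 1.28 over the 23 bound cytoplasmic genes. With peaks at an FDR of 0.1%, RNA Pol bound 7 members and covered the start of 4, and 8.9% of all protein-coding genes were bound.

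The highest RNA Pol score belonged to *mRpL22* (FBgn0030786, chromosome X, plus strand, 16783933 to 16785092), whose bacterial counterpart lines the exit tunnel of the nascent chain. Its score of 2.37 stood at rank 7 of 1568 peaks (FDR 0.00167). The peak, from 16783497 to 16784087, was also the narrowest at any member (591 bp) and the only RNA Pol peak over a member's start that held no other start. The divergent start of the integrin gene *if*, 499 bp away, lay outside it. No Myc peak lay within 1 kb of *mRpL22*.

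Besides *mRpL22*, 3 members had an RNA Pol peak and no Myc peak. *mRpL55* (FBgn0038678, chromosome 3R, minus strand, 19094394 to 19094905) was wholly covered by a peak with a score of 1.71 (rank 122), which also held the starts of *ATPsynD*, encoding a subunit of the ATP synthase, 95 bp away, and of the kinase gene *cdi*. *mRpS7* (FBgn0032236, chromosome 2L, plus strand, 10386662 to 10387652) was overlapped by 2 peaks, at its start and at its other end, which together covered 52.3% of the gene. The peak at its start (score 1.33) also held the start of *Cdk1*, the mitotic cyclin-dependent kinase gene, 400 bp away, and the peak at its other end (1.48) held the start of *da*, which encodes the bHLH factor Daughterless. *mRpS26*, a small subunit gene without a bacterial counterpart on chromosome 3L, had a score of 1.32 (rank 619) in a peak shared with the start of *CG13698*.

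Myc and RNA Pol peaks met at 9 members, or 56.2% of the 16 bound by Myc and 69.2% of the 13 bound by RNA Pol. Over all protein-coding genes the corresponding shares were 44.1% and 62.3%. The count fell to 5 members when the peaks had to overlap the gene, and also to 5 with peaks at an FDR of 0.1%, both tried after seeing the data. Shares over all protein-coding genes bound by both under these settings were not computed. At each of these 9 members the Myc and RNA Pol peaks overlapped or touched, and at *mRpS10* and *mRpL20* they had the same ends. Myc without RNA Pol was found at 7 members and RNA Pol without Myc at 4.

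The member bound by Psi was *mRpL53* (FBgn0050481, chromosome 2R, plus strand, 13954195 to 13955664), a large subunit gene with no bacterial counterpart. This gene shares both annotated ends with *CG33155* and lies inside *AGO1*, the gene for the Argonaute protein of the microRNA pathway, on the opposite strand. The Psi peak, from 13955322 to 13958013, had a score of 1.75, just under the median of the Psi list (1.84), at rank 1001 of 1710 (FDR 2.16e-11). Psi peaks overlapped 1 of the 73 members (1.37%), against 6.27% of all protein-coding genes and 1.61% after weighting to length. The peak covered the last 23.3% of *mRpL53* and ran on within *AGO1*, so the signal cannot be ascribed to 1 of the 3 genes. Of its bases, 78.1% were intronic and 9.81% coding, counting all protein-coding genes at the site. *mRpL53* was also the member bound in every list: the Myc peak (3.74, rank 415) covered the whole gene with its start, and the RNA Pol peak (1.24, rank 778) lay 837 bp beyond its end, inside *AGO1*. Psi-Dam and Pol-Dam share Dam-only sample 1, so their values at this gene are given side by side only. The start site of 0 of the 73 members lay in a Psi peak, against 1.56% of all protein-coding genes and 0.692% after weighting to length. A count of 0 is thus near the length-weighted share. Every start lay more than 1 kb from the nearest Psi peak. Weaker Psi signal, below the FDR, at the other 72 members cannot be read from a list of peaks.

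By the bases they covered, peaks at members lay in exons more than the lists as a whole. Of the bases in the 18 Myc peaks at members, 32.9% were coding and 11.2% lay outside protein-coding genes, against 13.7% and 29% over all Myc peaks. Of the bases in the 14 RNA Pol peaks at members, 19.8% were coding and 17.6% outside protein-coding genes, against 6.26% and 27.1% over all RNA Pol peaks. Peaks at members were selected for lying near genes, so part of this difference is built in.

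Myc bound 11 of 47 large subunit genes (23.4%) and 5 of 26 small subunit genes (19.2%), both close to the 19.2% over all protein-coding genes (12.3% and 12.5% after weighting to the length of each subset). RNA Pol bound 7 large subunit genes (14.9%) and 6 small subunit genes (23.1%), against 13.6% over all protein-coding genes (7.17% and 7.76% weighted). The start lay in an RNA Pol peak at 3 of the 47 large subunit genes (6.38%) and at all 6 bound small subunit genes (23.1% of 26). Over all protein-coding genes this share was 6.88% (3.58% and 4.02% weighted). Members counted by their number as having a bacterial counterpart (42 genes) were bound by Myc in 12 cases (28.6%) and by RNA Pol in 9 (21.4%). Members without one (31 genes) were bound by Myc in 4 cases (*mRpL49*, *mRpL50*, *mRpL52* and *mRpL53*) and by RNA Pol in 4 (*mRpL50*, *mRpL53*, *mRpL55* and *mRpS26*), or 12.9% each. For these subsets the shares over all genes weighted to length were 12.7% and 11.9% for Myc and 7.72% and 6.92% for RNA Pol. A start site lay in a Myc peak at 10 of the 42 (23.8%) and 2 of the 31 (6.45%), against 9.47% of all protein-coding genes and weighted shares of 6.59% and 6.38%. These differences between subsets were not tested, and the split by number may misplace some genes.

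Most members, among them well-studied ones, had no significant peak, and the share of all protein-coding genes without one was not computed. *mRpL12*, whose bacterial counterpart forms the ribosomal stalk and which in *Drosophila* is known from growth driven by Cyclin D and Cdk4, lay 39100 bp from the nearest Myc peak and 38158 bp from the nearest RNA Pol peak. *mRpS5* had the nearest Myc peak 305 kb away. At the 1 kb limit, the member just inside was *mRpL49* for Myc (313 bp) and *mRpL53* for RNA Pol (837 bp), and the member just outside was *mRpS30* for Myc (1143 bp), *mRpS2* for RNA Pol (1907 bp) and *mRpS11* for Psi (1292 bp). GATC sites, without which Dam cannot mark DNA, were present at every member: the gene with its 1 kb flanks held 6 to 16 sites at the 20 bound members (median 9.5) and 2 to 62 at the 53 without a peak (median 11).

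Promoter motifs were counted in a window from 250 bases before to 50 bases after the start, on both strands, and none of the motifs contains another. The E-box CACGTG was present in 5 of 73 members (6.85%), against 4.2% of all protein-coding promoters. It stood in 3 of the 16 members bound by Myc (*mRpS11*, *mRpS14* and *mRpL27*) and in 2 of the 57 not bound (*mRpL16* and *mRpL23*). Over all protein-coding genes it stood in 6.43% of those bound by Myc and 3.67% of the others. Sites are printed with 10 bases on each side, on the member's strand and with the motif in capitals. Their core is the same because it was the sequence searched for. They are those of *mRpS11* (plus strand, chr3R:17072638-17072663), *mRpS14* (minus strand, chrX:19480243-19480268), *mRpL27* (minus strand, chr2L:4459770-4459795) and *mRpL23* (minus strand, chr3L:2373688-2373713), all in BDGP6. Positions count from 1 at the first base of the gene, and negative values lie upstream.

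mRpS11: aaaacaagaaCACGTGaaaatagtct

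mRpS14: cacactggcaCACGTGttcacgcgct

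mRpL27: attagctaaaCACGTGacagatatat

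mRpL23: ttggacaaccCACGTGcttttacacg

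The E-box began at -84 in *mRpS11*, at -20 in *mRpS14*, at -147 in *mRpL27*, at 2 in *mRpL23* and at -116 in *mRpL16*. At *mRpS11* and *mRpL27* the site lay beyond the divergent start of the neighbour (*Ns1* at 57 bp and *CG15435* at 91 bp), on the neighbour's side. The *mRpS11* and *mRpS14* sites lay inside the Myc peaks, the *mRpL27* site lay upstream of the peak's edge, and *mRpL16*, whose printed sequence holds an E-box and a DRE, lay 16514 bp from the nearest Myc peak. When the window was widened to 500 bases on each side, a choice made after these values were seen, 16 members held an E-box (21.9%, against 12.9% of all protein-coding genes). These were 6 of the 16 members bound by Myc and 10 of the 57 not bound. Over all protein-coding genes the shares were 18.1% of those bound by Myc and 11.6% of the others. An E-box stood in this window at 14 of the 42 members with a bacterial counterpart by their number (33.3%) and 2 of the 31 without (6.45%). Shares over all genes weighted to the lengths of these subsets were 13.3% and 13.4%. The difference was not tested.

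The DRE TATCGATA, a promoter element of many housekeeping and replication genes, was present in 15 members (20.5%), against 9.36% of all protein-coding promoters and 7.51% after weighting to length. It stood in 28 of the 92 cytoplasmic genes (30.4%). Of the 15 members with a DRE, 3 were bound by Myc (*mRpL17*, *mRpL20* and *mRpL32*) and 12 were not. Myc bound 21.9% of all members and 19.2% of all protein-coding genes. It began 27 bases upstream of *mRpL32*, 73 upstream of *mRpL22* and 32 upstream of *mRpL16*, as marked in the printed sequences, and at *mRpL12* 24 bases into the gene. GCGCATGC, part of the motif of the mammalian mitochondrial gene regulator NRF-1, was found in 1 member (*mRpL21*), or 1.37% against 1.05% of all protein-coding promoters. A GATC lay in the promoter window of 29 members (39.7%, against 45.2% of all protein-coding promoters). A match describes the sequence only and does not show that a factor binds there.

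Most other genes of mitochondrial gene expression had no peak. Over all protein-coding genes, 19.2% were bound by Myc, 13.6% by RNA Pol and 7.92% by Psi, and the lists that follow are too short to set against these shares. The ribosomal protein genes *tko* (S12) and *bonsai* (S15), which the symbol rule leaves out, had no peak in any list. Of 7 mitochondrial translation factor genes matched, Myc bound 3: the elongation factor genes *mEFTu1* (score 3.1, start in the peak) and *mEFG1* (3.3) and the initiation factor gene *mIF2* (4.05, a peak 706 bp away). Neither Psi nor RNA Pol bound any of the 7. None of the 15 mitochondrial aminoacyl-tRNA synthetase genes had a peak in any list. Of 7 genes for transcription of mitochondrial DNA, *TFAM*, which encodes the DNA-packaging transcription factor, was bound by Psi (score 2.94, rank 7 of 1710) and by Myc (4.48, rank 94), and *mTerf3*, of the family of mitochondrial transcription termination factors, was bound by RNA Pol (0.94). Each of these peaks lay within 1 kb of a further protein-coding gene. The Psi peak at *TFAM* (chromosome 3R, 20573405 to 20575874) overlapped the gene without covering its start, and *CG5191* lies within 1 kb of the same peak.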

How the data were processed

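The authors aligned DamID reads to BDGP6 using Bowtie2 inside damidseq_pipeline, formed the log2 ratio of each Dam fusion over Dam alone per GATC fragment, averaged 3 replicates and called peaks by find_peaks (FDR of 1%). Tool versions were not stated. The deposited columns used were the peak score and its FDR, as the authors gave them. Averaging hides disagreement between replicates, and fragment length limits resolution. All 5229 peaks begin and end on GATC in the Release 6 sequence, so the builds match.

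Gene models came from Ensembl release 115, and a start site is the outermost upstream end of the gene. Peaks were assigned with Python 3.11.15 and numpy 2.4.6, checked on simulated data, and drawn with matplotlib 3.10.9. Length weighting averaged the share of bound protein-coding genes in 10 length deciles by the members' numbers. No test was run, because no sample has a value of its own. Members and lists were chosen with earlier results of these data known. The rule named members bound in 2 or 3 lists, the 8 highest scores per list, those at the 1 kb limit and bound genes of other mitochondrial lists. *mRpL12*, *mRpS5*, motif-bearing members and remaining bound members were named after their values were seen. *Crif*, *mEFG2* and *mtRF1* were not matched, and *ico* was matched as *mEFG1*. Alternatives were other distances, an FDR of 0.1%, coverage of 50% of the gene, the nearest start, any transcript start and members without neighbours.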

Additional observations from a re-analysis of the deposited data

How the results depend on the processing

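Of 37 alternative values, 19 lay within 1.5 times the reported count. With peaks at an FDR of 0.1%, RNA Pol bound 7 members, overlapped 4 and covered the start of 4, and Myc and RNA Pol met at 5, which is fewer peaks by construction. Over all protein-coding genes 8.9% were then bound by RNA Pol. Counting overlap alone, Myc and RNA Pol met at 5. When it had to cover 50% of the gene, 8 members remained for Myc, 5 for RNA Pol and 0 for Psi. Given only to the gene with the nearest start, peaks fell to 6 members for Myc, 5 for RNA Pol and 0 for Psi. For coverage of 50%, the nearest start and Myc with RNA Pol, shares over all protein-coding genes were not computed. At 2 kb Psi bound 2, against 9.26% of all protein-coding genes. Only 1 member (*mRpS5*) has no other gene within 1 kb, and it was bound by none (0 for each list). A divergent start within 500 bp was present at 51 members, against 25% of all protein-coding genes. Alternatives for Myc and RNA Pol together and for the divergent distance were chosen after seeing the data. Leaving out a replicate was not possible with averaged lists. No paired analysis was possible because each list is an average without values per sample.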
